A study of Mus musculus with 12 samples.

Results

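The CXC chemokine genes Cxcl1, Cxcl2, Cxcl3, Cxcl9, Cxcl10, Cxcl14, Cxcl16 and Pf4 were followed in tumour-associated macrophages (TAMs). They were chosen among the CXC ligand genes, with earlier results of these data known. The 8 genes are among 24781 in the table of counts. Wild-type mice carried intradermal tumours of MC38, a mouse colon adenocarcinoma line, and were injected intraperitoneally with picrotoxin or with its solvent DMSO from the day before inoculation. Picrotoxin blocks the ionotropic GABA type A receptor. On day 7, 100 cells positive for CD45 and CD11b with high F4/80 were sorted from tumours for each library, and the labels give 6 libraries for DMSO and 6 for picrotoxin, each set numbered from 1 to 6. The numbered libraries are named as independent preparations, but the labels do not say which mouse each came from. The sources differ on this: the study's methods describe 1 library for every mouse, while a figure legend counts fewer mice than the 6 libraries. All tests treat libraries as independent, so p-values measure the spread between libraries and are too small if some of them share a mouse.

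Chemokines are small secreted proteins that guide leukocytes through G protein-coupled receptors. CXCL1, CXCL2 and CXCL3 attract neutrophils through CXCR2, and their genes respond to NF-kB. CXCL9 and CXCL10 attract activated T cells and NK cells through CXCR3 and are induced by interferons, CXCL9 mainly by IFNγ. CXCL16 is made as a membrane protein that can be shed, and it binds CXCR6. PF4, also called CXCL4, is the abundant chemokine of platelet granules and is also transcribed in some macrophages, whereas the receptor biology of CXCL14 is less settled.

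On GRCm38, 6 of the 8 genes lie on chromosome 5 in 2 clusters. Pf4 (chr5:90772435-90773383), Cxcl3 (chr5:90786103-90789600), Cxcl1 (chr5:90891241-90893115) and Cxcl2 (chr5:90903871-90905938), all on the plus strand, span 133504 bases. Cxcl9 (chr5:92321347-92328079) and Cxcl10 (chr5:92346638-92348889), both on the minus strand, span 27543 bases. Cxcl14 lies alone at chr13:56288643-56296551 and Cxcl16 at chr11:70453983-70459984, both on the minus strand. All 8 are annotated as protein-coding. Cxcl10 overlaps Art3 and Cxcl16 overlaps Zmynd15 on the opposite strand. Whether the counting used strand is not given in the sources used here, so molecules of an overlapping pair may not be separable. Art3 was counted with 0 to 2 molecules per library and Zmynd15 with 10 to 19. Cxcl2 and Cxcl3 share a transcript segment of 116 bases at 95% identity or more, so molecules from it could be counted for either gene.

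The sequences around the transcription starts were searched for short patterns. Promoters from RefSeq were matched for 7 of the 8 genes, all but Cxcl16. The 300 bases from 250 before to 50 after each start were searched on both strands for 4 short patterns. These were GGGNNTTTC and GGGNNTTCC for NF-kB, GAAANNGAA for IRF and TTCNNNGAA for STAT factors. All matches in the listed genes lay before the start. Matches are in capitals below, in the direction of transcription, and the 5 stretches shown are those with a match to an NF-kB pattern. Windows stop before the first base of the gene in either annotation. Cxcl1 is chr5:90891135-90891240, Cxcl2 is chr5:90903789-90903870 and Cxcl3 is chr5:90785991-90786100, all plus strand. Cxcl9 is chr5:92328080-92328279 and Cxcl10 is chr5:92348890-92349109, both minus strand (GRCm38.p6).
Cxcl1: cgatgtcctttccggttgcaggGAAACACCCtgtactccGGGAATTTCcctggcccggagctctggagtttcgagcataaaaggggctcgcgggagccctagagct
Cxcl2: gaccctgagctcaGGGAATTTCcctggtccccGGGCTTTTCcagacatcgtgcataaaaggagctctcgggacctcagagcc
Cxcl3: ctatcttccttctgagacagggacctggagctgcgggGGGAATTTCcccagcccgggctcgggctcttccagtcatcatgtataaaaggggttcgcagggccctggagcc
Cxcl9: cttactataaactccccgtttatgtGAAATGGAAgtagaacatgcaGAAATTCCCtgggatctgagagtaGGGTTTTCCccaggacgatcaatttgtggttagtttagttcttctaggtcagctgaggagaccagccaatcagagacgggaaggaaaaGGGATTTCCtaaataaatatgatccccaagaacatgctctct
Cxcl10: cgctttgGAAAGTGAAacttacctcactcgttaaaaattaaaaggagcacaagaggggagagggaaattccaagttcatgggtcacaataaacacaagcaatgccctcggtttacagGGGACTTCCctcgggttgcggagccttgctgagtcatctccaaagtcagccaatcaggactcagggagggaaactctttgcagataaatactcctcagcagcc

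The Cxcl1, Cxcl2 and Cxcl3 stretches each held the same 9 bases, GGGAATTTC, starting 71, 97 and 73 bases before the RefSeq start, and Cxcl1 and Cxcl2 each held 1 further match. Cxcl9 held 3 NF-kB matches, 2 in the direction of transcription and 1 on the opposite strand, and 1 IRF match 175 bases before its start. Cxcl10 held GGGACTTCC 103 bases and GAAAGTGAA 213 bases before its start. Cxcl14 held 1 STAT and 1 IRF match, and no match was found for Pf4 in this window. Among all 32851 promoters of the table, 4.36% held GGGNNTTTC, 5.82% held GGGNNTTCC, 8.56% held GAAANNGAA and 8.3% held TTCNNNGAA within the same window. Either NF-kB pattern was held by 9.53% of promoters and by 5 of the 7 listed here. These are letter matches, not measured binding.

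The libraries held 201697 to 309617 molecules and 9846 to 10866 detected genes, and totals did not differ between groups beyond their spread (exact permutation test, two-sided, p = 0.156). The ribosomal RNA precursor Rn45s took 10.1% ± 2.42 (SD, n = 6) of a DMSO library and 12.95% ± 1.32 (SD, n = 6) of a picrotoxin library. All 13 macrophage markers were detected, with 2617 to 3962 molecules of them per library. Monocyte markers gave 221 to 365 molecules in DMSO and 252 to 383 in picrotoxin libraries. Markers of neutrophils summed to 3 to 11 molecules, with S100a9, Retnlg, Ly6g, Ngp, Camp and Ltf at 0. Dendritic, B cell and endothelial lists reached at most 7 molecules in a library. T and NK cell markers reached 22 molecules in picrotoxin replicate 6, 20 of them from Gzmb. Cd3e, Cd3g, Cd8a and Gzma were at 0 in every library. The MC38 epithelial list gave 8 to 14 molecules in DMSO and 9 to 21 in picrotoxin libraries, 152 of the 155 molecules in all from Cdh1, with Epcam, Krt7, Krt18, Krt19, Cldn3 and Cldn4 at 0. Fibroblast and matrix transcripts were at 14 to 741 molecules in DMSO and 8 to 44 in picrotoxin libraries, with DMSO replicates 5, 3 and 6 at 741, 187 and 108. In earlier results of these data, libraries numbered 1 and 2 stood apart from those numbered 3 to 6 in both groups. With 100 cells per library, fewer expressing cells and less RNA per cell cannot be told apart.

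Together the 8 chemokine genes gave 0.353% ± 0.0732 of the molecules in DMSO libraries and 0.337% ± 0.0469 in picrotoxin libraries (SD, n = 6). The totals behind these shares include Rn45s, at a mean of 10.1% in DMSO and 12.95% in picrotoxin libraries. Cxcl2, Cxcl9, Cxcl10, Cxcl14, Cxcl16 and Pf4 were counted in all 12 libraries, Cxcl1 in 9 and Cxcl3 in 6. 7 of the 8 had a mean above 1 normalised molecule and were tested, and Cxcl3 was not. Normalised molecules are counts divided by a size factor per library. Their levels are compared between libraries and not between genes.

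Picrotoxin and DMSO libraries overlapped for every one of the 8 genes. 0 of the 7 tested genes passed an adjusted p of 0.05 in edgeR, the quasi-likelihood test with Benjamini-Hochberg adjustment over 9580 genes, of which 0.0522% passed. 0 of 7 also had an unadjusted p under 0.05, against 7.77% of all tested genes (3.65% higher and 4.11% lower in picrotoxin). By the rule of the study, an unadjusted p under 0.05 in DESeq2, 0 of 7 were called, against 3.82% of all genes. Groups did not overlap for 0.386% of all genes. The median log2 fold change was -0.15 over the 7 genes and -0.01 over all genes tested, with 5 of the 7 negative. Without DMSO replicate 5, the median was 0.009 and 3 of the 7 were negative, so the sign of this median rests on that library. The intervals below say how large a change the libraries left possible.

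**Figure D1:**
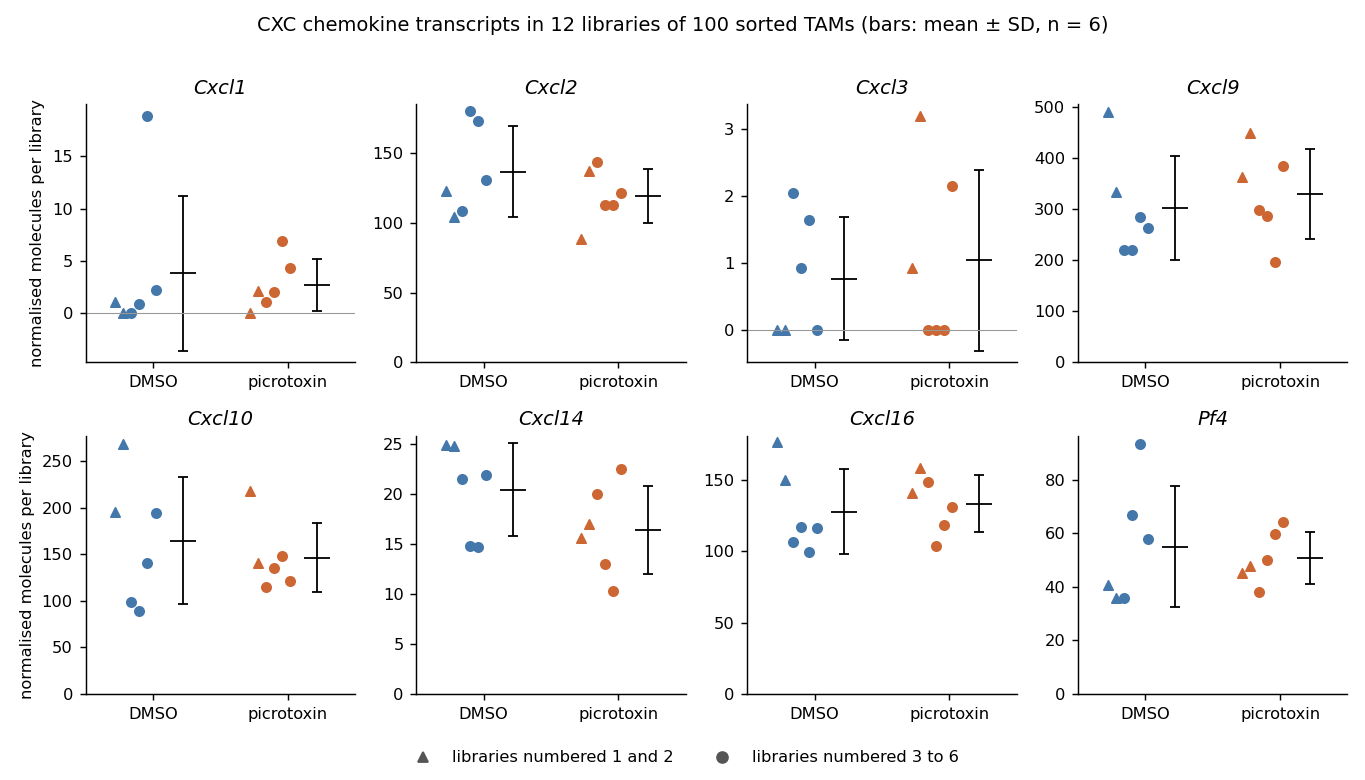
Normalised molecules per library (y axis, from 0 or below) for each of the 8 genes in DMSO (blue) and picrotoxin (orange) libraries, with triangles for libraries numbered 1 and 2, circles for 3 to 6, and bars for the mean ± SD of 6 libraries. The groups overlap in every panel, and a single DMSO library stands out for Cxcl1 at 18.8.

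Of the ligands of CXCR2, Cxcl2 was the one counted at depth. Its normalised molecules had a lowest, median and highest value of 104, 127 and 180 in DMSO and 88.5, 117 and 143 in picrotoxin libraries. The 2 highest values belonged to DMSO replicates 4 and 5, and the lowest to picrotoxin replicate 1. Means were 136 ± 32.4 and 119 ± 19.6 (SD, n = 6), with 4 of 6 picrotoxin libraries below the DMSO mean. The log2 fold change was -0.19 (SE 0.13, 95% interval -0.46 to 0.08, edgeR adjusted p = 0.790), the smallest adjusted p among the chemokines. On the linear scale the interval runs from 0.727-fold to 1.06-fold. The coefficient of variation was 23.7% in DMSO and 16.4% in picrotoxin libraries, where counting alone would give 8.22% and 9.36%.

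Cxcl1 gave 43 molecules over all libraries, 23 of them in DMSO replicate 5. The other DMSO libraries held 0, 0, 1, 1 and 3 molecules, and picrotoxin libraries held 0, 1, 2, 2, 4 and 6. DMSO replicate 5 therefore lies above every other library, and the rest of the groups overlap. Its 23 molecules were 0.00831% of the library (95% Wilson interval 0.00554 to 0.0125%, counting error only). This was also the library with the most fibroblast and matrix transcripts, at 741 molecules. DMSO replicates 3 and 6, with 187 and 108 of them, held 0 and 3 molecules of Cxcl1. The part of fibroblast and matrix transcripts in the Cxcl1 value was not tested. The log2 fold change was -0.63 (SE 0.73, 95% interval -2.11 to 0.85, edgeR adjusted p = 0.899) with all libraries and 1.40 without DMSO replicate 5 (adjusted p = 0.823), so its direction rests on that library. The matrix score of a library is the mean log2 CPM of its tested fibroblast and matrix genes. With this score as a covariate in edgeR the log2 fold change was 1.99, at an unadjusted p of 0.0171 and an adjusted p of 0.761. That fit adjusts for the score and does not measure the part of these transcripts in the Cxcl1 value.

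**Figure D2:**
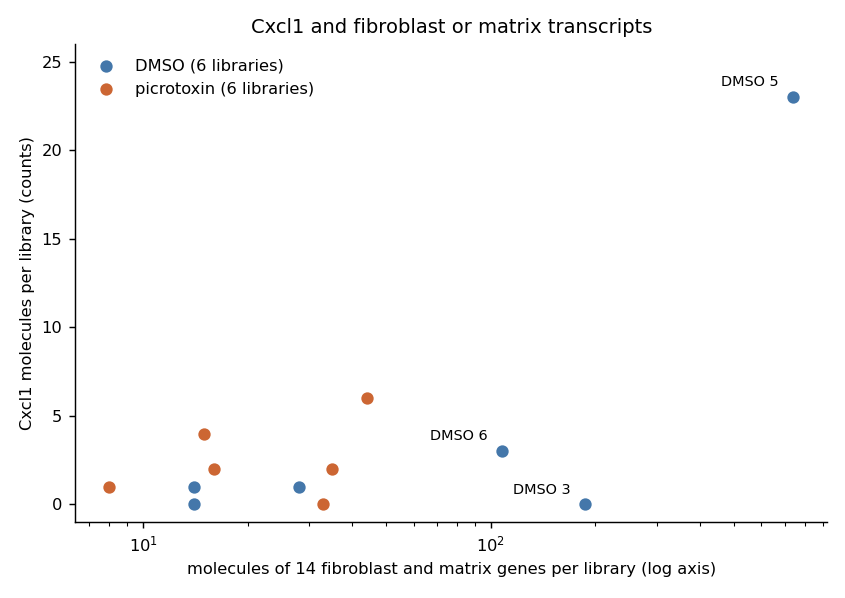
Cxcl1 molecules (y axis, counts) against molecules of 14 fibroblast and matrix genes (x axis, log scale) in each of the 12 libraries, coloured by group. DMSO replicate 5 lies at 23 and 741, and the other 11 libraries hold 0 to 6 molecules of Cxcl1.

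Cxcl3 was at the limit of detection, with 11 molecules in all and at most 3 in a library. It was counted in 3 DMSO and 3 picrotoxin libraries, and no fold is given. In the library with the lowest total, a count of 0 is compatible with a share of 0.00149% or less (3 molecules). Their receptor Cxcr2 was also sparse, at 0 to 6 molecules in DMSO and 0 to 3 in picrotoxin libraries. Its log2 fold change was -0.75 (SE 0.68, edgeR adjusted p = 0.856), and Cxcr1 was at 0 in every library. Of the other neutrophil-attracting ligands, Cxcl5 and Cxcl15 were at 0 throughout and Ppbp gave 1 molecule, in DMSO replicate 4.

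The ligands of CXCR3 were Cxcl9 and Cxcl10, with Cxcl11 near the limit of detection. Cxcl9 had a lowest, median and highest level of 219, 274 and 490 normalised molecules in DMSO and 197, 330 and 448 in picrotoxin libraries. The highest library of each group was numbered 1 or 2. Means were 302 ± 102 for DMSO and 329 ± 87.9 for picrotoxin (SD, n = 6), and 3 of 6 picrotoxin libraries were above the DMSO mean. The log2 fold change was 0.14 (SE 0.16, 95% interval -0.18 to 0.46, edgeR adjusted p = 0.894). Counting alone would give a coefficient of variation of 5.53% in DMSO libraries, and the observed one was 33.7%. Leaving out DMSO replicate 1 gave 0.33 and leaving out picrotoxin replicate 2 gave 0.03, with adjusted p = 0.491 and 0.983.

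Cxcl10 ran from 89.0 over a median of 167 to 268 normalised molecules in DMSO and from 115 over 138 to 218 in picrotoxin libraries. DMSO replicate 2 was the highest of all and DMSO replicates 4 and 3 the lowest, so the picrotoxin range fell inside the DMSO range. The means were 164 ± 68.1 and 146 ± 37.4 (SD, n = 6). Cxcl10 had a log2 fold change of -0.15 (SE 0.18, 95% interval -0.53 to 0.22, edgeR adjusted p = 0.901), and of 0.04 without DMSO replicate 2 (adjusted p = 0.980). Cxcl11 gave 0 to 5 molecules in DMSO and 0 to 4 in picrotoxin libraries, with a log2 fold change of -0.59 (SE 0.67, edgeR adjusted p = 0.894). Cxcr3, the receptor of these ligands on lymphocytes, was at 0 in all 12 libraries.

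Cxcl9 exceeded Cxcl10 in molecules in each library, and the ratio of the pair varied. The median ratio was 2.12 in DMSO libraries, with a range of 1.24 to 2.51, and 2.36 in picrotoxin libraries, with a range of 1.33 to 3.20. Only the variation of this ratio between libraries is read here, and the ranges overlap.

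Cxcl16 had a coefficient of variation of 23.2% in DMSO and 15.1% in picrotoxin libraries. The lowest, median and highest values were 99.8, 117 and 177 normalised molecules in DMSO and 103, 136 and 158 in picrotoxin libraries, and DMSO replicate 1 was the highest. Means were 128 ± 29.6 and 133 ± 20.1 (SD, n = 6). The log2 fold change was 0.08 (SE 0.13, 95% interval -0.19 to 0.34, edgeR adjusted p = 0.943), which is an interval of 0.878-fold to 1.27-fold. Its receptor Cxcr6 gave 1 molecule, in DMSO replicate 6. Adam10 and Adam17, proteases that shed CXCL16, had log2 fold changes of 0.21 (SE 0.13, edgeR adjusted p = 0.756) and 0.21 (SE 0.13, edgeR adjusted p = 0.756).

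Cxcl14 was counted in every library but with few molecules, at 16 to 30 molecules in DMSO and 9 to 21 in picrotoxin libraries. Normalised, the lowest, median and highest values were 14.7, 21.7 and 25.0 in DMSO and 10.4, 16.3 and 22.5 in picrotoxin libraries. Means were 20.5 ± 4.63 and 16.4 ± 4.45 (SD, n = 6), with 5 of 6 picrotoxin libraries below the DMSO mean. The log2 fold change was -0.29 (SE 0.21, 95% interval -0.72 to 0.13, edgeR adjusted p = 0.798), and the exact permutation test gave p = 0.177. The coefficient of variation, 22.6% in DMSO and 27.1% in picrotoxin libraries, was near the 21.2% and 25.2% that counting alone would give.

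Pf4 ran from 35.7 over a median of 49.2 to 93.3 normalised molecules in DMSO and from 37.9 over 49.0 to 64.3 in picrotoxin libraries. DMSO replicate 5 was the highest and the other 11 libraries were at 66.8 or below. Means were 55.0 ± 22.6 and 50.8 ± 9.72 (SD, n = 6). Pf4 had a log2 fold change of -0.13 (SE 0.18, 95% interval -0.50 to 0.25, edgeR adjusted p = 0.927), and of 0.08 without DMSO replicate 5 (adjusted p = 0.964). DMSO replicate 5 is the library with 741 fibroblast and matrix molecules, whose part in the Pf4 value was not tested. Platelet and megakaryocyte markers summed to 0 to 4 molecules per library, with Itga2b, Gp9, Gp1ba, Gp5, Gp6, Clec1b and Tubb1 at 0 in all of them, beside 35 to 114 molecules of Pf4.

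**Figure D3:**
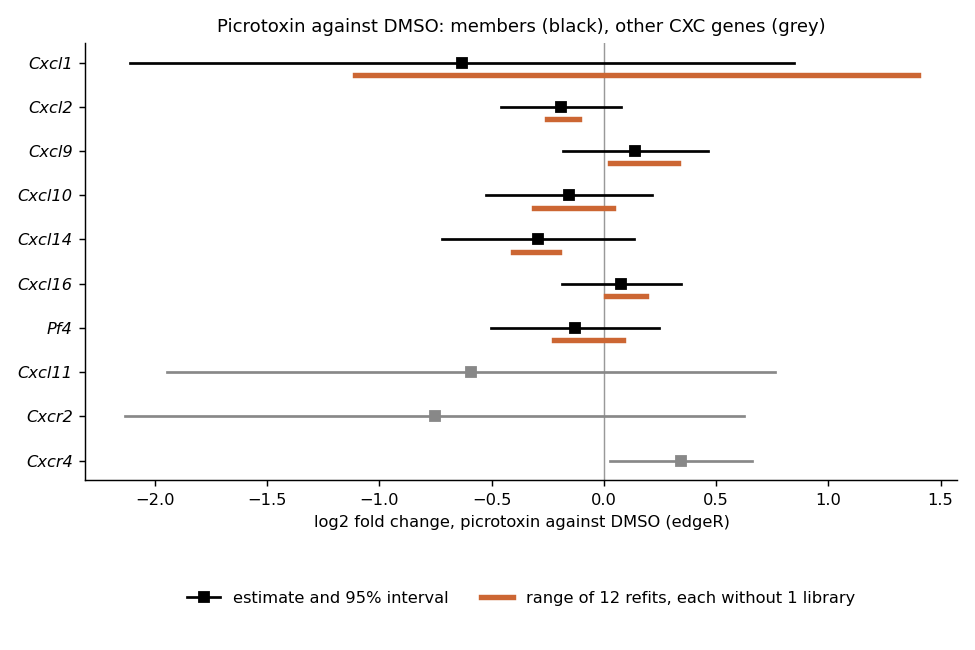
Log2 fold change of picrotoxin against DMSO from edgeR (x axis) for the 7 tested chemokines (black) and for Cxcl11, Cxcr2 and Cxcr4 (grey), with 95% intervals as lines. Orange bars give the range over 12 refits that each left out 1 library, and those of Cxcl1, Cxcl10 and Pf4 cross 0.

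Of the receptors, Cxcr4, which binds CXCL12, was the one counted in every library. It gave 21, 26, 24, 41, 31 and 38 molecules in DMSO replicates 1 to 6 and 36, 30, 34, 38, 30 and 31 in picrotoxin replicates 1 to 6. Normalised means were 27.2 ± 5.63 and 34.4 ± 2.24 (SD, n = 6), and all 6 picrotoxin libraries lay above the DMSO mean, although DMSO replicate 4, at 38.03, reached the picrotoxin range. The log2 fold change was 0.34 (SE 0.16, unadjusted p = 0.0347, edgeR adjusted p = 0.620), so it did not pass, and DESeq2 gave an unadjusted p of 0.0886. Its ligand Cxcl12 gave 5 molecules in DMSO replicate 5 and 1 in DMSO replicate 6, the libraries with 741 and 108 fibroblast and matrix molecules, and 0 elsewhere. Ackr3 gave 1 molecule. Cxcl13, Cxcl17, Cxcr5 and Ackr1 were at 0.

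Libraries numbered 1 and 2 and those numbered 3 to 6 differed in the level of several of these genes in both groups, which is described here without a test. Cxcl9 averaged 408 normalised molecules in the 4 libraries numbered 1 and 2 (333 to 490) and 269 in the 8 numbered 3 to 6 (197 to 385). Cxcl16 averaged 157 (141 to 177) against 118 (99.8 to 148), and Cxcl10 206 (140 to 268) against 130 (89.0 to 194). Pf4 went the other way, with 42.3 (35.7 to 47.8) against 58.2 (35.9 to 93.3), as did Cxcl2, with 113 (88.5 to 137) against 135 (109 to 180). The ranges overlapped for each of these 5 genes. Among libraries numbered 3 to 6 alone, the log2 fold change was 0.26 for Cxcl9 (adjusted p = 0.551), 0.21 for Cxcl16 (adjusted p = 0.677) and -0.01 for Cxcl10 (adjusted p = 0.993). Among libraries 1 and 2, with 2 per group, the log2 ratio of means was -0.02, -0.13 and -0.37 for the same genes. What sets the numbered libraries apart was not tested.

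The 6 genes counted in every library were then compared with each other, after the mean of the group was removed from log2 CPM. Over 12 libraries, 0 of 15 pairs passed an adjusted p of 0.05 (permutation within groups). The highest was Cxcl9 with Cxcl16 (Pearson r = 0.76, permutation p = 0.00814, adjusted p = 0.122, Spearman rho = 0.73, permutation p = 0.0134, adjusted p = 0.120). Without the 2 libraries farthest from the median of Cxcl9 its r was 0.50, and in the 8 libraries numbered 3 to 6 it was 0.19 (permutation p = 0.833), so the relation rests on the libraries numbered 1 and 2. Cxcl9 with Cxcl14 gave r = 0.66 over 12 libraries (rho = 0.69, permutation adjusted p = 0.138 and 0.120) and 0.66 over those 8 (permutation p = 0.148). Cxcl14 with Cxcl16 gave 0.65 (rho = 0.69, permutation adjusted p = 0.138 and 0.120) and 0.60 (permutation p = 0.221). The neighbours Cxcl9 and Cxcl10 gave 0.48 over 12 libraries (rho = 0.44, permutation adjusted p = 0.269 and 0.337) and 0.11 over 8. Cxcl2 and Pf4, of the other cluster on chromosome 5, gave 0.60 (rho = 0.66, permutation adjusted p = 0.208 and 0.145) and 0.53, and Cxcl2 with Cxcl10 gave -0.59 (rho = -0.65, permutation adjusted p = 0.208 and 0.145) and -0.21.

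**Figure D4:**
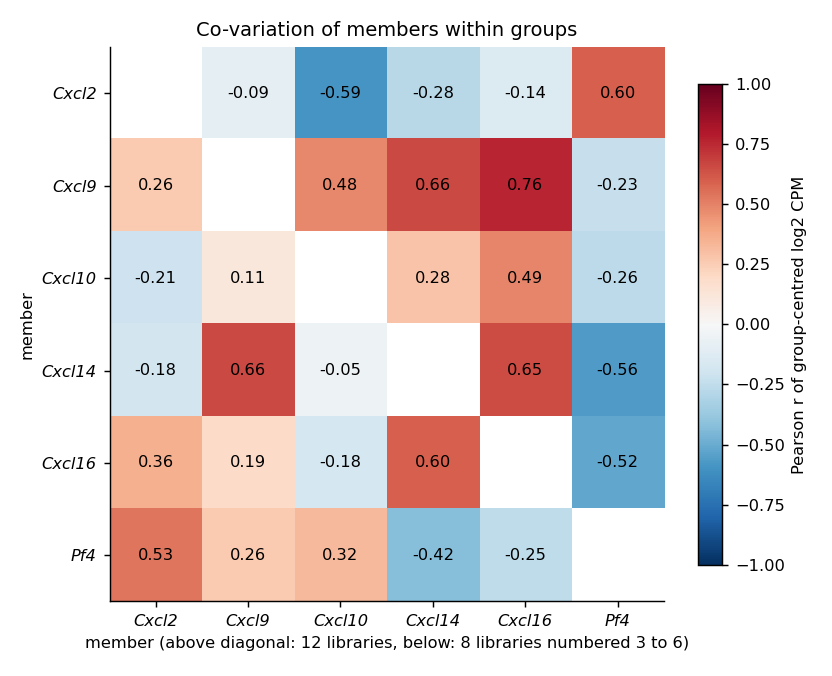
Pearson r between the 6 genes counted in every library, from group-centred log2 CPM (colour scale from -1 to 1), over 12 libraries above the diagonal and over the 8 libraries numbered 3 to 6 below it. Cxcl9 and Cxcl16 go from 0.76 above to 0.19 below, and Cxcl9 and Cxcl14 are at 0.66 in both.

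Other genes followed single chemokines more closely than the chemokines followed each other, as a choice of the best among 1990 genes will tend to show. For Cxcl9 these were Slc11a1 (r = 0.92), a metal transporter of phagosomes, Psmb10 (0.91), an immunoproteasome subunit, and Stx7 (0.90). For Cxcl16 they were Prdx5 (0.95), Fcgr3 (0.94), an Fcγ receptor, and Tmsb4x (0.94). For Cxcl2 they were Ccl9 (0.82), Mat2a (0.81) and Ptgs2 (0.77), the inducible cyclooxygenase. For Cxcl10 they were Cox5b (0.84), Snrpc (0.82) and Skil (0.82), and for Pf4 Mat2a (0.83), Lrp1 (0.80) and Bnip3l (0.79). These are descriptions over 12 libraries that share depth and the split by number.

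The pathways that control and handle these ligands were described with lists of their genes. 0 genes of these lists passed the adjusted test. At an unadjusted p under 0.05 in edgeR, 3.65% of all tested genes were higher in picrotoxin libraries and 4.11% lower. The median log2 fold change of all tested genes was -0.01. Of the NF-kB inducers and targets, 19 of 20 were tested, with 2 higher and 1 lower at an unadjusted p under 0.05 and a median log2 fold change of 0.05. They were Nfkbiz, a nuclear IkB protein (0.37, unadjusted p = 0.0117, adjusted p = 0.471), Icam1, an adhesion molecule (0.46, unadjusted p = 0.0178, adjusted p = 0.511), and Ccl2, a monocyte attractant (-0.31, unadjusted p = 0.0152, adjusted p = 0.495). Of 6 genes for the decay or stabilisation of AU-rich mRNA, such as those of Cxcl1 and Cxcl2, 0 were higher and 1 was lower, the stabilising factor Elavl1 (-0.40, unadjusted p = 0.0399, adjusted p = 0.621). Zfp36, which destabilises such mRNA, had a log2 fold change of -0.08 (unadjusted p = 0.551). Zfp36l2 and Zfp36l1, of the same family, were at 0.22 (edgeR unadjusted p = 0.0803, adjusted p = 0.732) and 0.20 (unadjusted p = 0.182, adjusted p = 0.806). Of the 6 genes, 3 had positive and 3 had negative values.

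Of the IFNγ receptor and target genes, 18 of 19 were tested, 6 were higher and 0 lower at an unadjusted p under 0.05, against 3.65% higher in all genes. Their median log2 fold change was 0.23, against -0.01 over all tested genes, with 15 of 18 positive. The 3 smallest p-values belonged to Irf8, a macrophage transcription factor (0.39, unadjusted p = 0.00426, adjusted p = 0.341), Nos2, the inducible nitric oxide synthase (0.65, unadjusted p = 0.0136, adjusted p = 0.479), and Igtp, an interferon-inducible GTPase (0.34, unadjusted p = 0.0150, adjusted p = 0.495). Cxcl9, also a target of IFNγ, stood at 0.14 with an unadjusted p of 0.383. Whether Cxcl9 differs from the genes of the list was not tested. Of 15 type I interferon receptor and target genes, 1 was higher and 1 lower (median -0.05), against 3.65% higher and 4.11% lower in all genes. The higher gene was Ifnar2 (0.30, unadjusted p = 0.0303, adjusted p = 0.596) and the lower Ifit1 (-1.003, unadjusted p = 0.0177, adjusted p = 0.509).

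Of 9 genes for shedding, cleavage or binding of chemokines, 7 were tested, with 1 higher, 1 lower and a median of 0.20. The counts are at an unadjusted p under 0.05, which 3.65% of all tested genes passed as higher and 4.11% as lower. Sdc4, a heparan sulphate proteoglycan that can hold chemokines at the cell surface, averaged 29.4 ± 6.52 (SD, n = 6) normalised molecules with DMSO and 43.6 ± 6.93 (SD, n = 6) with picrotoxin. On the log2 scale the change was 0.58 (SE 0.16, unadjusted p = 9.4e-04, edgeR adjusted p = 0.242), and all 6 picrotoxin libraries lay above the DMSO mean. The Sdc4 groups overlapped, with the highest DMSO library at 39.0 and the lowest picrotoxin library at 32.2. Sdc1, of the same family, was at 2.55 ± 2.32 and 0.321 ± 0.498, with a log2 fold change of -2.58 (SE 0.89, edgeR adjusted p = 0.405). This rests on 20 molecules in 6 libraries, 7 and 6 of them in DMSO replicates 5 and 6, which also held 741 and 108 fibroblast and matrix molecules, and the part of those transcripts was not tested. Without DMSO replicate 5 the value was -2.19 (adjusted p = 0.706). Srgn, the proteoglycan of secretory granules that binds PF4, had a log2 fold change of 0.20 (SE 0.11, edgeR adjusted p = 0.728).

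**Figure D5:**
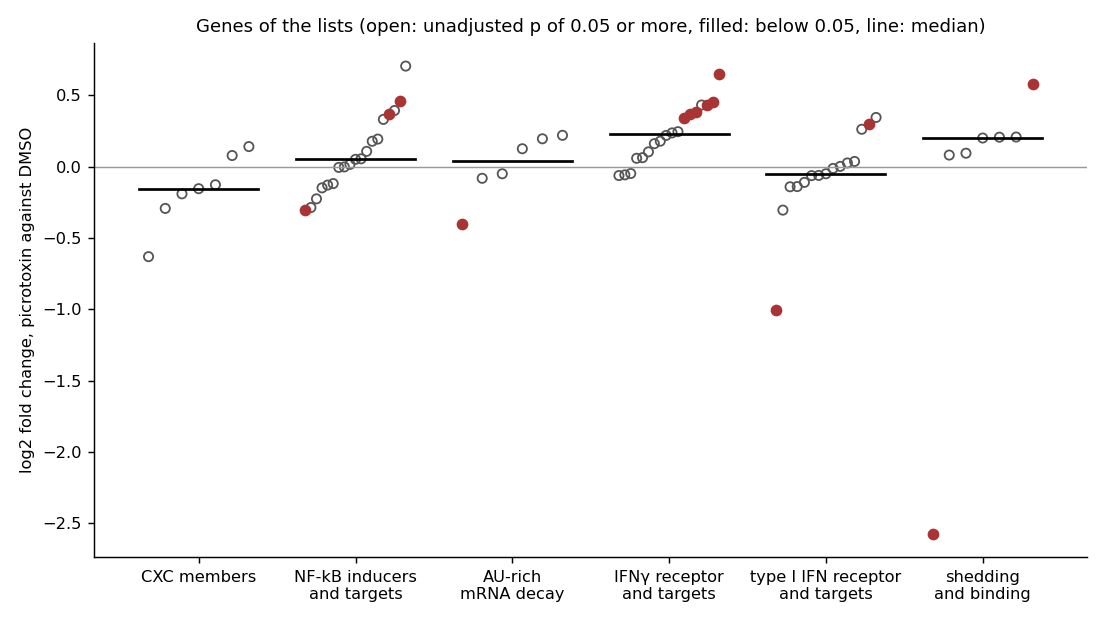
Log2 fold change of picrotoxin against DMSO (y axis) for each tested gene of the CXC chemokines and of 5 lists, filled where the unadjusted p is under 0.05, with the median as a line. The chemokines hold no filled point, and the IFNγ list holds 6, all above 0. Of all tested genes, 7.77% have an unadjusted p under 0.05.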

How the data were processed

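The authors deposited 1 table of molecule counts by gene symbol. RNA had been reverse transcribed from an oligo-dT primer with a molecular barcode, and reads were mapped to mm10 with STAR and annotated with refFlat. Strand use and the handling of reads that map to several places are not given in the sources used here. Oligo-dT priming favours the 3′ end. Because barcodes were counted, a value is a molecule and not a PCR copy, and Wilson intervals and floors cover counting error only, whereas the intervals of fold changes come from the spread between libraries. A library of 201697 molecules puts a floor of 3 molecules at 0.00149%.

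Genes with a mean above 1 normalised molecule (counts divided by DESeq2 size factors) were tested, 9580 of 24781. Groups were compared in edgeR 4.0.16 (TMM scaling, quasi-likelihood F test), and p-values were adjusted by Benjamini-Hochberg across these genes. DESeq2 1.42.0 gave the rule of the study and limma 3.58.1 an alternative. The standard error came from the fold change and the F statistic. Exact permutation tests used log2 CPM and all 924 assignments of libraries, taken as independent although some may share a mouse. Pairs were compared by 100000 permutations within groups, with a prior count of 2. Positions are those of GENCODE M21 on GRCm38, promoters those of RefSeq, and shared segments came from BLAST 2.17.0. Tests were tested on simulated data.

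The members and lists were chosen with earlier results of these data known. Named genes are the 8 members, the other CXC ligands and receptors, and, from each other list, the genes that passed the adjusted test or up to 3 with the smallest p. Genes most like a member were taken among those with a mean of at least 20. A few list genes were named for their role (Adam10, Adam17, Zfp36) after their values were seen. Protein sequences were not analysed here. Same-numbered libraries correlated at -0.05 to 0.18, so numbers were not taken to pair libraries.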

Additional observations from a re-analysis of the deposited data

Results flagged for a closer look

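In groups of 6 libraries, 20 comparisons of the most extreme library with the others (Dixon's test) marked 3 values. Chance would mark about 1 if values were normal. Counts near 0, as for Cxcl1, Cxcl11 and Cxcr2, are not normal, so no excess is read from this. Cxcl1 stood at 18.8 normalised molecules in DMSO replicate 5, against 0 to 2.20 in the other DMSO libraries (gap over range 0.883). Cxcl10 stood at 218 in picrotoxin replicate 1, against 115 to 148 in the other picrotoxin libraries (0.675). Cxcr4 stood at 38.03 in DMSO replicate 4, against 21.8 to 27.8 in the other DMSO libraries (0.630).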

How the results depend on the processing

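Each of the 7 fold changes was recomputed under other scaling, filters, tests and sets of libraries. Of the 167 values, which reuse the same 12 libraries, 157 kept their direction. None of the values with an adjusted p passed 0.05 (lowest 0.491, Cxcl9 without DMSO replicate 1). The exact permutation values and the DESeq2 values of Cxcl1 and Cxcl14 had no adjusted p. For Cxcl1 the log2 fold change became 0.27 with limma-voom, 0.16 as the difference in the exact permutation test, 1.13 without DMSO replicates 3 and 5, and 1.99 when the matrix score entered the model. For Cxcl16 it became -0.062 without DMSO replicates 3 and 5 and -0.089 with the matrix score. With the matrix score, that of Pf4 became 0.16. The cause was not tested. Leaving out 1 library at a time gave -1.11 to 1.40 for Cxcl1 (1.40 without DMSO replicate 5), -0.31 to 0.040 for Cxcl10 (0.040 without DMSO replicate 2), -0.22 to 0.085 for Pf4 (0.085 without DMSO replicate 5), -0.25 to -0.11 for Cxcl2, 0.03 to 0.33 for Cxcl9, -0.40 to -0.20 for Cxcl14 and 0.01 to 0.19 for Cxcl16.

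The number of chemokines with an unadjusted p under 0.05, 0 of 7, became 2 with the matrix score (Cxcl1 at 0.0171 and Cxcl14 at 0.0406), 1 without DMSO replicates 3 and 5 (Cxcl10 at 0.0471) and between 0 and 1 with 1 library left out (Cxcl9 at 0.0230 without DMSO replicate 1). The number of list genes past the adjusted test, 0, became 1 with replicates 3 to 6 alone (Irf8, 0.56, adjusted p = 0.0394). The rule of the study called 0 chemokines under each alternative run. Of the 15 correlations, 6 changed sign among libraries numbered 3 to 6 alone, to 0.26 (Cxcl2 and Cxcl9), 0.36 (Cxcl2 and Cxcl16), 0.26 (Cxcl9 and Pf4), -0.053 (Cxcl10 and Cxcl14), -0.18 (Cxcl10 and Cxcl16) and 0.32 (Cxcl10 and Pf4).

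With the replicate block, log2 fold changes ran from -0.30 (Cxcl14) to 0.15 (Cxcl9), and 0 chemokines passed the adjusted test. Over all genes, edgeR called 5 genes and 43 with the block, 27 with a term for numbers 1 and 2, 49 with replicates 3 to 6 alone, 13 with library totals, 81 without the filter, 3 with limma-voom and 0 with the matrix score, and between 0 and 25 with 1 library left out. Depth limits Cxcl1, Cxcl3, Cxcl11, Cxcl12, Cxcr2 and Sdc1, which gave a few molecules per library or none.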
